A study of Mus musculus with 25 samples.

Results

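The comparison set tumour-infiltrating CD8+ T cells that lacked Prdm1 directly against tumour-infiltrating CD8+ T cells that lacked c-Maf. It used 6 of the 25 libraries of the study, 3 from Prdm1 cKO mice and 3 from c-Maf cKO mice, and it tested 10760 of the 23366 gene symbols in the table, those with a value of at least 1 in at least 3 of the 6 libraries. Both groups were conditional knockouts on the C57BL/6 strain that carried B16F10 tumours, a transplantable mouse melanoma. The other libraries came from 3 Prdm1/c-Maf cDKO samples, in which both genes were targeted, and from 16 wild-type samples. The Cre driver, the age and sex of the mice and the number of mice behind each library were not given in the sources used here. On average about 2000 cells were lysed, and bulk RNA from the lysate was carried through an adapted SMART-Seq2 protocol, a full-length cDNA method for small inputs. The labels do not say that libraries of a group came from separate mice, so the p-values measure a spread between libraries. In the fit across all genes this was the spread within groups over all 25 libraries, not over the 6 alone.

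Prdm1 encodes Blimp-1, a zinc-finger transcriptional repressor that promotes effector differentiation of CD8+ T cells and is known for high expression in exhausted cells. Maf encodes c-Maf, a basic leucine zipper factor that drives IL-10 and IL-21 expression in several T cell subsets. Both factors are known for a part in the expression of co-inhibitory receptors on T cells in tumours. A direct comparison of the single knockouts asks which transcripts differ when one or the other factor is missing.

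The values are the normalised signal that the authors deposited per gene and library, and every fold change below is a difference of log2(signal + 1), Prdm1 cKO minus c-Maf cKO, which understates the change of genes with low signal. Libraries are named by the codes at the head of their columns, A5, A6 and A9 for Prdm1 cKO and B10, B11 and C1 for c-Maf cKO. Each knockout stands in the table next to its own wild-type columns, 7 beside Prdm1 cKO (run 1) and 4 beside c-Maf cKO (run 2), and no label says what such a run of columns stands for. A genotype difference and a difference between runs therefore cannot be told apart from the 6 libraries alone, and the value from a model with a term for the run is given beside the median of each list, and beside a called gene where it is smaller by more than 1.5 times. Column totals were 427738 to 464903 and 12749 to 14864 symbols were above 0, and the number of reads behind them is unknown.

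The libraries separated by genotype, and equally by run. On the first principal component of the genes tested, which held 42.7% of the variance, A5, A6 and A9 lay at 17.1, 36.0 and 52.3, and B10, B11 and C1 at -38.8, -41.4 and -25.3. The second component, 19.6% of the variance, set C1 apart at -50.1. Cd8a and Cd8b1, which encode the CD8 chains, were above 0 in every library: Cd8a was 126, 96.1 and 102 in Prdm1 cKO libraries, against 208, 181 and 183 in c-Maf cKO libraries. The mean log2 level over 7 CD8 T cell markers was 7.69, 7.64 and 7.46 in Prdm1 cKO libraries, against 8.26, 8.25 and 8.20 in c-Maf cKO libraries, and 0 of the 7 passed the test (median difference -0.72, -0.24 with the run, -0.01 after rescaling each library to its CD3 genes). Cd3d, Cd3e and Cd3g, the CD3 genes, are among these markers. Their median after that rescaling was therefore drawn toward 0 by construction. Cd4 was at 0 in all Prdm1 cKO libraries and at most 0.34 in c-Maf cKO libraries.

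Marker transcripts of other cells had mostly positive differences, with 0 called beside Gzma of the NK cell set. The summed signal of 16 macrophage and monocyte markers was 1513 to 4548 in Prdm1 cKO libraries and 214 to 1292 in c-Maf cKO libraries. It was 56.1 to 2545 in wild type of run 1 and 133 to 808 in wild type of run 2. Their mean log2 level was 5.09, 5.21 and 6.40 in A5, A6 and A9, against 2.53, 2.87 and 5.08 in B10, B11 and C1, so C1 was close to A5. All 15 tested members had positive differences (median 2.34, 1.93 with the run) and 0 were called. The median difference was 2.22 over 10 dendritic cell markers (1.37 with the run), 2.24 over 11 melanoma markers (0.48 with the run, with 9 positive and 2 negative) and 3.59 over 3 erythroid markers (3.35 with the run), with 0 called in each set. Over the other sets it was 0.52 for 3 neutrophil markers (0.39 with the run), 1.54 for 2 B cell markers (0.87), -1.39 for 4 NK cell markers (-1.31) and -0.24 for 3 CD4 and regulatory T cell markers (-1.03). A single marker was tested for fibroblasts and endothelium (Pecam1, 1.26, and 0.77 with the run) and for mast cells (Kit, -0.73, and -0.34 with the run), and none for gamma delta T cells. Among the most abundant markers, Cd74, the MHC class II invariant chain, was 697, 578 and 2264 in Prdm1 cKO libraries, against 91.5, 38.9 and 647 in c-Maf cKO libraries. Pmel, a melanosome protein, was 252, 318 and 482 in Prdm1 cKO libraries, against 218, 75.6 and 2.03 in c-Maf cKO libraries. Hba-a1, a globin with near-identical copies, was 183, 962 and 1551 in Prdm1 cKO libraries, against 121, 14.2 and 82.9 in c-Maf cKO libraries. A9 was the highest library for all of these, and C1 was near the Prdm1 cKO libraries for Cd74 and lowest for Pmel.

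The summed melanoma markers were 883 to 1927 in Prdm1 cKO libraries and 22.1 to 863 in c-Maf cKO libraries, with C1 lowest. Mpo, Dcn, Cpa3, Fcer1a and Sox13, markers of neutrophils, fibroblasts, mast cells and gamma delta T cells, were at 0 in all 6 libraries. Some other markers of these cells were above 0. Cxcr2 (neutrophils) was 3.93 to 8.67 and Kit (mast cells) 5.15 to 24.06 over the 6 libraries. S100a9 (neutrophils) was 0, 15.68 and 0 in Prdm1 cKO libraries, against 0.48, 3.99 and 0.39 in c-Maf cKO libraries. Col3a1 (fibroblasts) was 3.98, 0 and 1.25 in Prdm1 cKO libraries, against 0 in all c-Maf cKO libraries. Blk (gamma delta T cells) was 1.02 in A6 and 0 elsewhere. In bulk libraries, fewer cells of a type and less RNA per cell cannot be told apart.

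**Figure D1:**
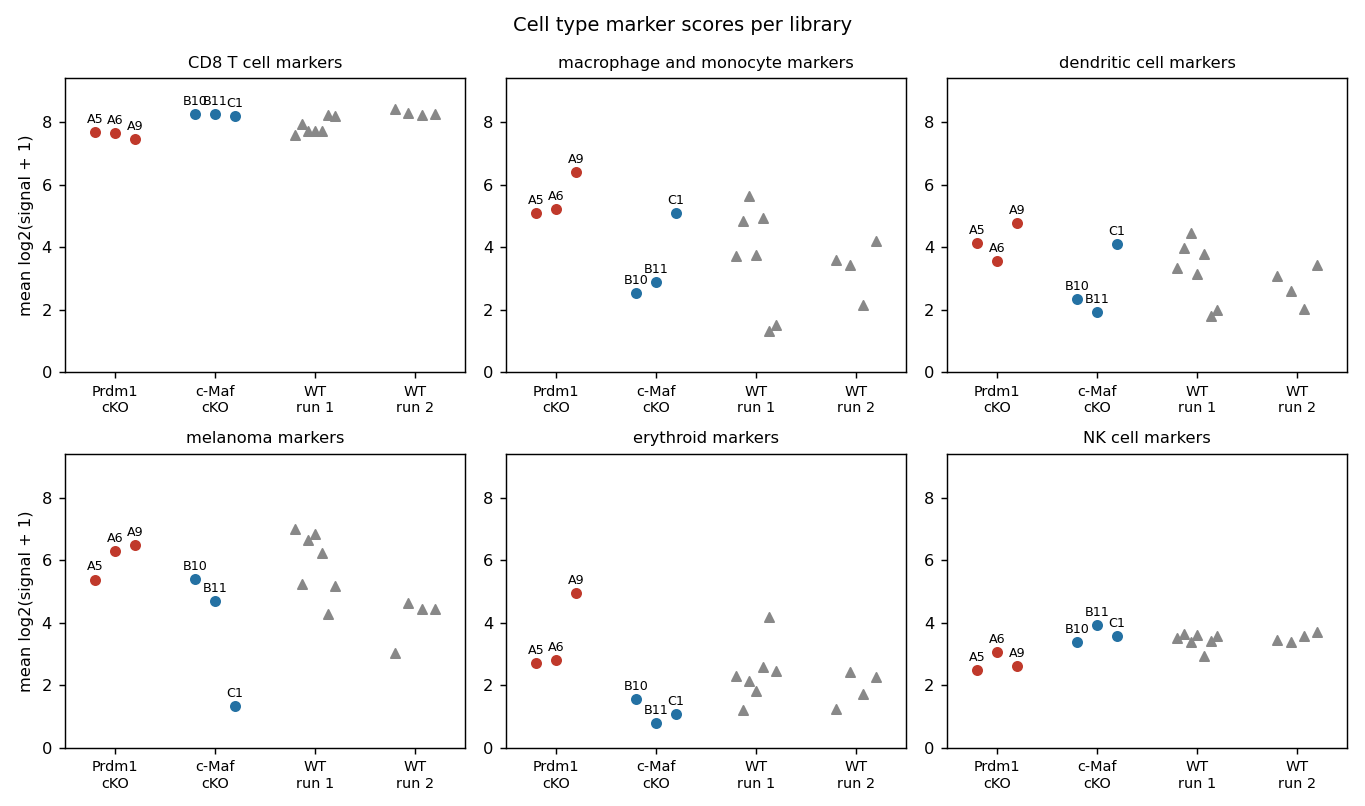
Mean log2(signal + 1) of 6 cell type marker sets (y axis) in each library, with Prdm1 cKO (A5, A6, A9), c-Maf cKO (B10, B11, C1) and the wild-type columns of runs 1 and 2 along the x axis. Each point is 1 library. The macrophage panel shows A5 at 5.09 and A6 at 5.21 beside C1 at 5.08, with A9 above them at 6.40 and B10 and B11 below them at 2.53 and 2.87.

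The targeted genes were examined first. Prdm1 was 4.71, 0.41 and 3.66 in Prdm1 cKO libraries, against 20.3, 14.4 and 16.3 in c-Maf cKO libraries. All 3 Prdm1 cKO values lay below all c-Maf cKO values, with a mean of 2.93 ± 2.24 in Prdm1 cKO libraries and 17.0 ± 3.0 in c-Maf cKO libraries (SD, n = 3 each), so that Prdm1 cKO held 17.2% of the c-Maf cKO level. An exact two-sided permutation test gave p = 0.1, the smallest that 3 against 3 libraries allow, and the limma fit across all genes gave a difference of -2.41 (SE 0.45, adjusted p = 0.0134). Wild type spanned 9.38 to 18.8 in run 1 and 19.4 to 24.9 in run 2, and with the run in the model the difference was -1.70. Maf was 1.09, 0.41 and 1.0 in Prdm1 cKO libraries, against 0, 0 and 0.93 in c-Maf cKO libraries. The value in C1 lay within the range of the 16 wild-type libraries, 0.03 to 0.95, so Maf does not check the label of C1, and Maf was too low for the fit across all genes (exact two-sided permutation p = 0.2). Which exons were deleted is not given in the sources used here, and reads outside the deleted part would remain. The c-Maf side below is the 3 libraries labelled c-Maf cKO.

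Prdm1 cKO and c-Maf cKO libraries differed in 204 of 10760 genes (1.90%) at an adjusted p under 0.05, by limma with Benjamini-Hochberg adjustment. Of these, 73 (0.678%) were higher and 131 (1.22%) were lower in Prdm1 cKO, and 202 had 3 Prdm1 cKO values that did not overlap the 3 c-Maf cKO values. Over all genes tested, 11.1% were higher and 13.7% lower without overlap. These shares, of genes called and of genes without overlap, are the background for the list counts and single genes below. The median difference was 1.53 over the genes called higher, -1.39 over those called lower, and -0.04 over all genes. When each library was rescaled to its CD3 genes, the median over all genes was 0.57, the background for rescaled list medians below.

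With the run of columns in the model, 0 genes were called by limma, with 657 at an unadjusted p under 0.05 and a smallest adjusted p of 0.190. All 204 kept their sign, 157 of them at an unadjusted p under 0.05, and the median size of their differences was 1.04, against 1.44 without the run. With the macrophage score as a covariate, 7 genes were called, all of them among the 204, and the median size over the 204 was 1.33. The number called also rested on single libraries: it was 343 without A5, 12 without A6, 39 without A9, 5 without B10, 20 without B11 and 70 without C1. Differences with the run were -4.44 to -1.31 over the 10 leading genes on the lower side and 1.15 to 3.99 over the 10 on the higher side. The leading genes are those with the largest differences in each direction after markers of other cells, among them Gzma, and clone names were skipped. Leading genes were taken only from called genes without overlap, so their lack of overlap was fixed by the choice. Of these 20, 14 were called without A5, 4 without A6, 5 without A9, 1 without B10, 2 without B11 and 8 without C1. With the macrophage score as a covariate, 1 leading gene on the lower side and 1 on the higher side were called.

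**Figure D2:**
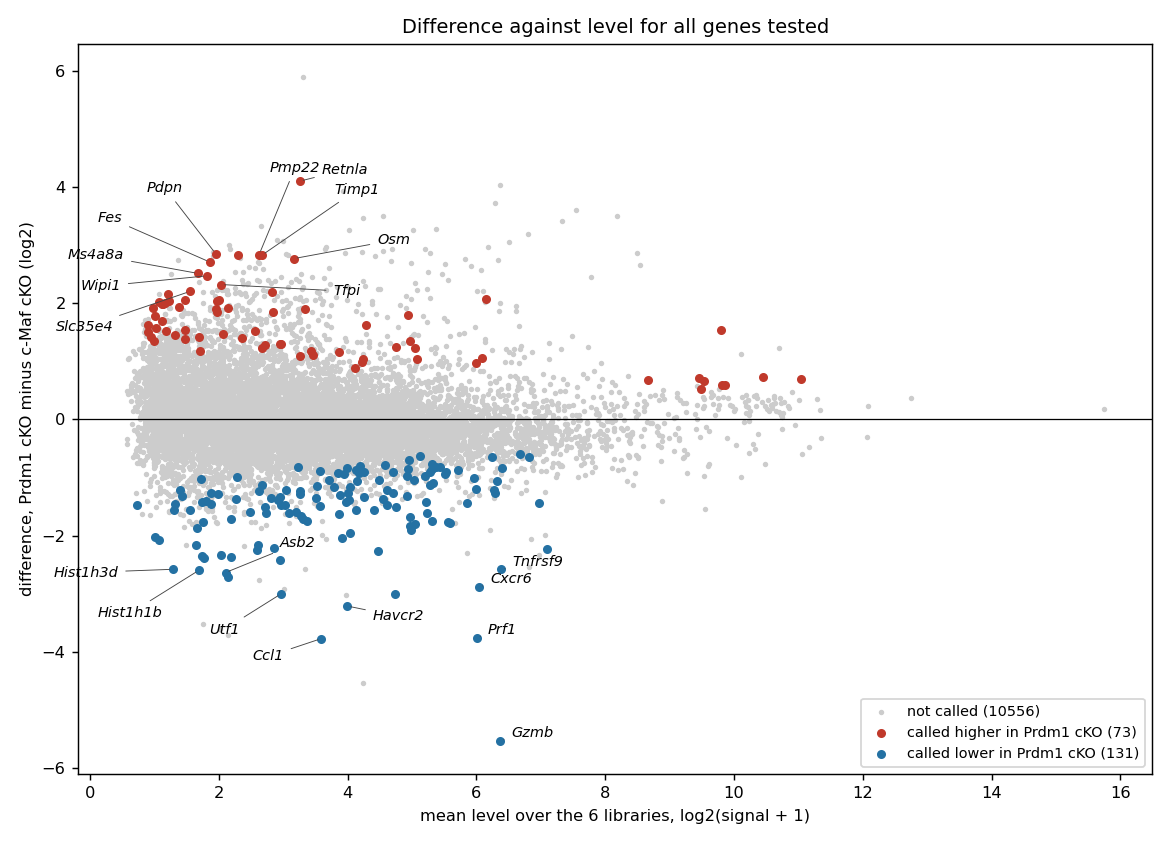
Difference in log2(signal + 1) between Prdm1 cKO and c-Maf cKO (y axis, Prdm1 cKO minus c-Maf cKO) against the mean level over the 6 libraries (x axis, log2(signal + 1)) for each of 10760 genes. The 73 genes called higher are red, the 131 called lower are blue, and the 20 leading genes are named, with Gzmb at -5.53 and Retnla at 4.10 as the extremes among them.

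Cytotoxic granule genes that passed the test were lower in Prdm1 cKO. Gzmb, the granule protease that triggers death of target cells, was 5.68, 7.18 and 32.2 in Prdm1 cKO libraries, against 418, 535 and 789 in c-Maf cKO libraries. The highest Prdm1 cKO library, A9, remained below the lowest c-Maf cKO library, and the difference was -5.53 (SE 0.72, adjusted p = 0.000988), or -4.44 with the run in the model. Wild-type Gzmb spanned 191 to 663 in run 1 and 461 to 1051 in run 2. Gzmb was also among the genes called with the macrophage score in the model (adjusted p = 0.0101).

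Prf1, which encodes the pore-forming protein perforin, was 11.5, 21.2 and 18.3 in Prdm1 cKO libraries, against 175, 246 and 302 in c-Maf cKO libraries (difference -3.75, SE 0.78, adjusted p = 0.0255, and -2.34 with the run). All Prdm1 cKO values were low and close together. Gzma, another granule protease, which NK cells also express, was 4.20, 12.03 and 11.4 in Prdm1 cKO libraries, against 69.8, 90.05 and 65.98 in c-Maf cKO libraries (difference -3.00, SE 0.61, adjusted p = 0.0239). Serpinb9, an inhibitor of granzyme B that protects the killer cell itself, was 17.7, 10.8 and 19.4 in Prdm1 cKO libraries, against 48.2, 78.1 and 58.8 in c-Maf cKO libraries (difference -1.90, SE 0.50, adjusted p = 0.0471). Groups did not overlap for any of these genes. Nkg7, a granule membrane protein, was 374, 413 and 544 in Prdm1 cKO libraries, against 1352, 1147 and 1333 in c-Maf cKO libraries, also without overlap, and missed the threshold at an adjusted p of 0.0524.

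Of 19 tested killing genes, 0 were called higher and 4 lower (Gzmb, Prf1, Gzma, Serpinb9), against 0.678% higher and 1.22% lower over all genes tested. There were 16 negative and 3 positive differences, the highest 1.77, and the median was -1.54, against -0.04 over all genes. It was -0.87 with the run in the model and -0.83 after rescaling each library to its CD3 genes. The number called was 3 without A5, 1 without A6, 2 without A9, 1 without B10, 1 without B11 and 2 without C1. Reads of the granzyme genes c to g, which are near copies of each other, may be split among them by the authors' counting.

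**Figure D3:**
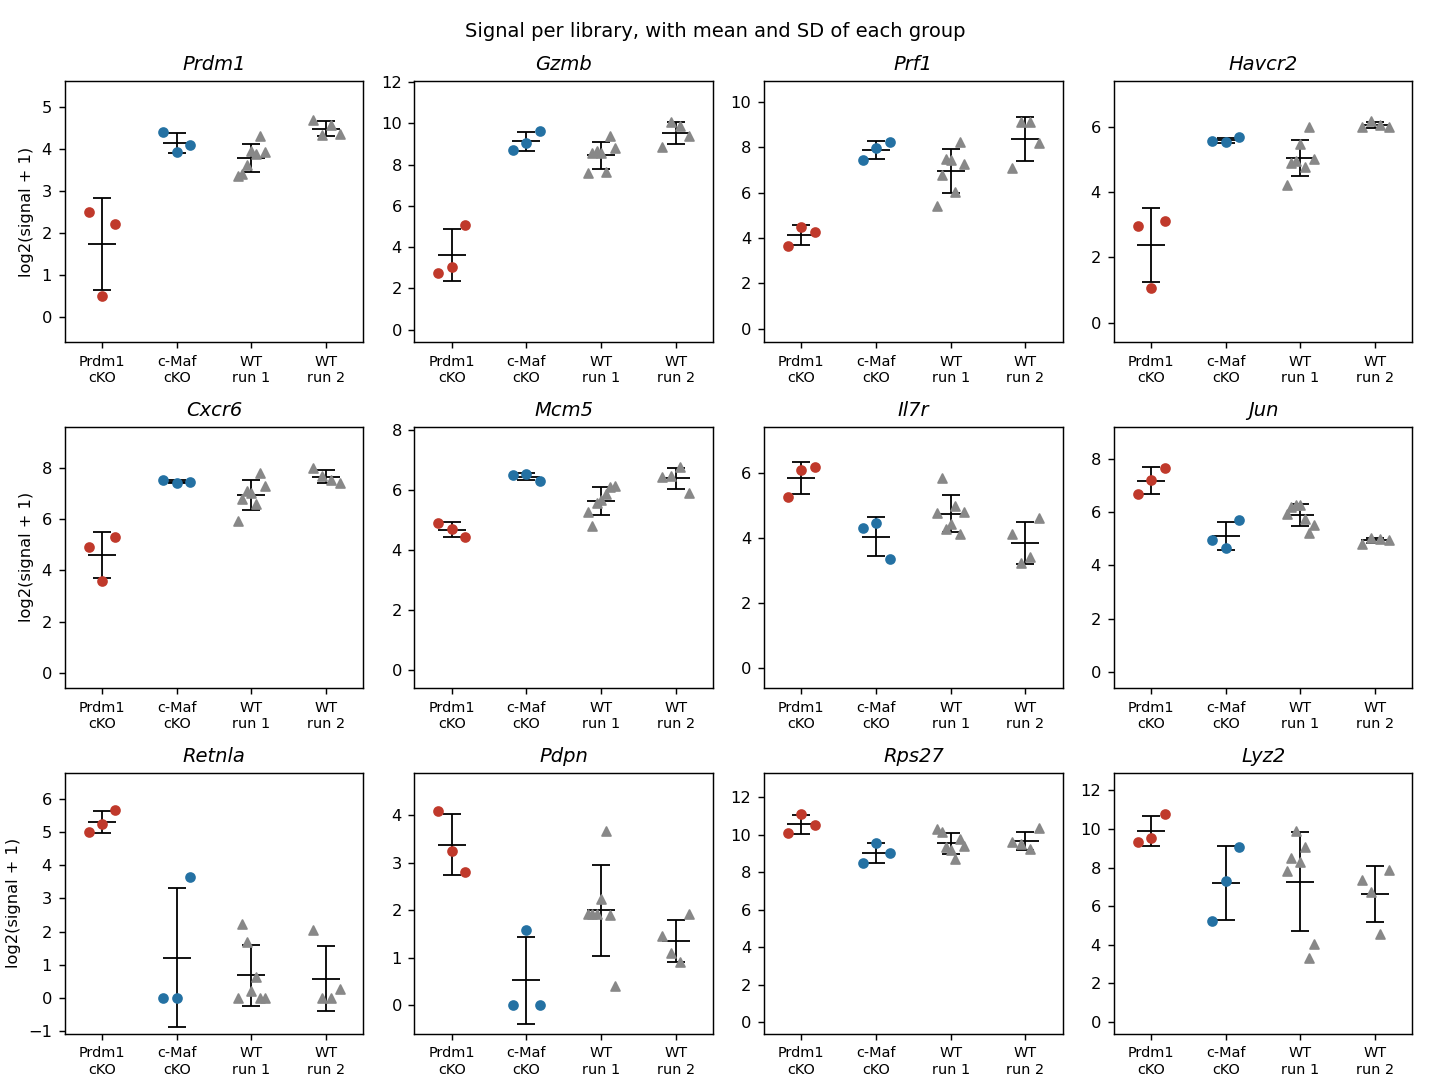
Signal per library for 12 genes, as log2(signal + 1) on the y axis, with Prdm1 cKO, c-Maf cKO and wild type of runs 1 and 2 along the x axis. Each point is 1 library, and bars give the mean and SD of each group. Gzmb, Prf1, Havcr2, Cxcr6 and Mcm5 are lower in all 3 Prdm1 cKO libraries than in any c-Maf cKO library, and Il7r, Jun, Retnla, Pdpn and Rps27 are higher.

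Co-inhibitory receptors and ligands held called genes in both directions. Havcr2, which encodes TIM-3, a receptor of terminally exhausted cells, was 6.78, 1.11 and 7.76 in Prdm1 cKO libraries, against 46.7, 45.5 and 50.5 in c-Maf cKO libraries (difference -3.21, SE 0.57, adjusted p = 0.0134, -2.20 with the run). The c-Maf cKO libraries were tightly grouped. Pdpn, podoplanin, a membrane glycoprotein with inhibitory activity in mouse T cells, went the other way, at 15.9, 8.54 and 5.97 in Prdm1 cKO libraries, against 0, 2.0 and 0 in c-Maf cKO libraries (difference 2.85, SE 0.72, adjusted p = 0.0440). Podoplanin transcripts were listed at 0 in B10 and C1 and above 0 in every Prdm1 cKO library. Wild type of run 1 spanned 0.32 to 11.8, which overlaps the Prdm1 cKO values. With the macrophage score in the limma model the difference was 2.27 and Pdpn was not called (adjusted p = 0.204). In cDKO the difference from wild type of its run was -0.24.

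Pdcd1, which encodes PD-1, was 139, 26.4 and 45.05 in Prdm1 cKO libraries, against 279.9, 242 and 335 in c-Maf cKO libraries, and Lag3 was 87.2, 19.2 and 8.88 in Prdm1 cKO libraries, against 131, 104 and 148 in c-Maf cKO libraries. Neither passed the test, at adjusted p of 0.0524 for Pdcd1 and 0.0709 for Lag3. For both genes A5 was the highest Prdm1 cKO library. Of 23 tested co-inhibitory genes, 1 was called higher and 1 lower, and the median difference was -0.51, or -0.05 with the run in the model and 0.08 after rescaling to CD3 genes. The number called was 4 without A5, 0 without A6, 1 without A9, 0 without B10, 1 without B11 and 1 without C1.

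Co-stimulatory receptors were lower in Prdm1 cKO where they passed. Tnfrsf9, which encodes 4-1BB, a receptor induced by activation, was 72.3, 26.3 and 19.2 in Prdm1 cKO libraries, against 180.5, 195 and 239 in c-Maf cKO libraries (difference -2.58, SE 0.63, adjusted p = 0.0439, and -1.67 with the run). Cd226, which encodes DNAM-1, an activating receptor that competes with TIGIT for ligand, was 17.9, 17.1 and 14.5 in Prdm1 cKO libraries, against 63.9, 46.01 and 56.8 in c-Maf cKO libraries (difference -1.69, SE 0.37, adjusted p = 0.0262). Neither gene overlapped between the groups. All 12 tested members had negative differences (median -0.61, -0.55 with the run and 0.03 after rescaling to CD3 genes), and 2 were called. The number called was 2 without A5, 0 without A6, 0 without A9, 0 without B10, 0 without B11 and 0 without C1.

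Chemokine ligands and receptors that passed were lower in Prdm1 cKO. Ccl1, the ligand of the receptor CCR8, was 0.19, 1.92 and 9.02 in Prdm1 cKO libraries, against 87.8, 34.5 and 27.2 in c-Maf cKO libraries (difference -3.77, SE 0.86, adjusted p = 0.0318). Its lowest c-Maf cKO value, in C1, was above its highest Prdm1 cKO value, in A9, and the difference with the run in the model was -3.86. Ccl4, an inflammatory chemokine of activated T cells, was 44.6, 70.5 and 77.2 in Prdm1 cKO libraries, against 288, 235 and 379 in c-Maf cKO libraries (difference -2.22, SE 0.58, adjusted p = 0.0461, and -1.39 with the run). Cxcr6, a receptor of tissue-resident cells that binds CXCL16, was 29.4, 10.9 and 38.4 in Prdm1 cKO libraries, against 185, 173 and 176 in c-Maf cKO libraries (difference -2.88, SE 0.61, adjusted p = 0.0262).

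None of these overlapped between the groups. Ccl3, the close relative of Ccl4, was 32.1, 34.7 and 85.7 in Prdm1 cKO libraries, against 182, 250.1 and 438 in c-Maf cKO libraries and did not pass (adjusted p = 0.0878). Of 16 tested members of the list, 0 were called higher and 3 lower, with 7 positive and 9 negative differences and a median of -0.27 (-0.01 with the run, 0.41 after rescaling to CD3 genes). Under that rescaling Ccl4 was not called (adjusted p = 0.0505). The number called was 1 without A5, 0 without A6, 2 without A9, 0 without B10, 0 without B11 and 0 without C1.

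Entpd1 encodes CD39, the surface enzyme that degrades extracellular ATP and marks exhausted tumour-infiltrating cells, and it was 5.97, 6.60 and 18.6 in Prdm1 cKO libraries, against 40.2, 40.5 and 67.02 in c-Maf cKO libraries (difference -2.27, SE 0.48, adjusted p = 0.0246, -1.36 with the run). It was the only called gene of 10 tested for the ATP and adenosine pathway, whose median difference was 0.18 (0.22 with the run, 0.84 after rescaling to CD3 genes). Nt5e, which encodes CD73, the next enzyme of that pathway, was 7.95, 18.2 and 16.2 in Prdm1 cKO libraries, against 7.13, 6.99 and 1.79 in c-Maf cKO libraries. All 3 Prdm1 cKO values were above the c-Maf cKO values, but Nt5e did not pass (adjusted p = 0.0961). Among 18 adhesion and residency genes, Podnl1, a leucine-rich repeat protein of the podocan family, was the only gene called, at 0.91, 0.37 and 1.34 in Prdm1 cKO libraries, against 6.81, 5.87 and 3.55 in c-Maf cKO libraries (difference -1.77, SE 0.46, adjusted p = 0.0440). The list had a median difference of -0.29 (-0.21 with the run, 0.16 after rescaling to CD3 genes), and Podnl1 was not called under that rescaling (adjusted p = 0.0530).

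DNA replication genes had more members called lower than any other of the 26 lists. Mcm5, a subunit of the replicative helicase, was 29.1, 24.9 and 20.4 in Prdm1 cKO libraries, against 89.4, 90.7 and 78.1 in c-Maf cKO libraries (difference -1.76, SE 0.33, adjusted p = 0.0134, -1.01 with the run). The Prdm1 cKO values were all under the lowest c-Maf cKO value. Mcm3, of the same helicase, was 48.8, 29.9 and 27.4 in Prdm1 cKO libraries, against 88.6, 90.98 and 105 in c-Maf cKO libraries (difference -1.44, SE 0.29, adjusted p = 0.0218, and -0.78 with the run). Rrm1, the large subunit of ribonucleotide reductase, was 28.99, 29.2 and 21.96 in Prdm1 cKO libraries, against 45.9, 65.5 and 62.9 in c-Maf cKO libraries (difference -1.09, SE 0.28, adjusted p = 0.0449, and -0.60 with the run). Uhrf1, which carries DNA methylation through replication, was 23.6, 21.9 and 11.7 in Prdm1 cKO libraries, against 45.8, 43.6 and 52.1 in c-Maf cKO libraries (difference -1.32, SE 0.35, adjusted p = 0.0458, and -0.71 with the run).

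Mcm2, Mcm4, Mcm6, Mcm7 and Gins2, which are all parts of the same helicase complex, were the other called members. Of 18 S phase genes, 0 were called higher and 9 lower, against 0.678% higher and 1.22% lower over all genes tested. Every difference was negative, and the median was -1.17 (-0.62 with the run, -0.52 after rescaling to CD3 genes). Under that rescaling 0 S phase genes were called, with Mcm5 at an adjusted p of 0.0697. The number called was 9 without A5, 0 without A6, 1 without A9, 0 without B10, 1 without B11 and 1 without C1. All 20 genes of G2 and M phase had negative differences too (median -0.92, -0.29 with the run, where 19 of the 20 were negative), but only Mki67, which encodes the proliferation marker Ki-67, was called, at 6.56, 3.77 and 9.0 in Prdm1 cKO libraries, against 16.3, 16.01 and 19.2 in c-Maf cKO libraries (difference -1.35, SE 0.35, adjusted p = 0.0440, and -0.67 with the run). Mki67 was not called after rescaling to CD3 genes (adjusted p = 0.188). Cdc20, an activator of the anaphase-promoting complex, was 27.1, 21.1 and 17.0 in Prdm1 cKO libraries, against 69.5, 52.4 and 27.9 in c-Maf cKO libraries and did not pass (adjusted p = 0.0698).

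Replication-dependent histone genes stood among the leading lower genes. Hist1h1b, a linker histone, was 0.28, 0 and 0.77 in Prdm1 cKO libraries, against 5.87, 5.92 and 9.56 in c-Maf cKO libraries (difference -2.60, SE 0.66, adjusted p = 0.0440, and -1.73 with the run). Hist1h3d, a core histone H3 gene, was listed at 0 in all Prdm1 cKO libraries and was 7.23, 4.82 and 3.46 in c-Maf cKO libraries, so no fold is given (adjusted p = 0.0353). Histone genes share reads with near-identical copies, and their values are uncertain for that reason.

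Utf1 and Asb2 complete the leading lower genes. Utf1, a chromatin-associated factor known from embryonic stem cells, was 6.36, 0 and 1.87 in Prdm1 cKO libraries, against 27.2, 22.9 and 15.1 in c-Maf cKO libraries (difference -3.00, SE 0.61, adjusted p = 0.0231, and -1.98 with the run). Asb2, the substrate-binding subunit of an E3 ubiquitin ligase, was 0.7, 1.91 and 0.04 in Prdm1 cKO libraries, against 10.1, 10.7 and 8.56 in c-Maf cKO libraries (difference -2.64, SE 0.49, adjusted p = 0.0137). The Prdm1 cKO library nearest the c-Maf cKO values was A5 for Utf1 and A6 for Asb2.

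Genes of naive, memory and stem-like T cells that passed were higher in Prdm1 cKO. Il7r, the receptor chain for the survival cytokine IL-7, was 37.5, 66.5 and 71.3 in Prdm1 cKO libraries, against 18.7, 21.3 and 9.17 in c-Maf cKO libraries (difference 1.80, SE 0.44, adjusted p = 0.0404, 0.90 with the run). Cxcr5, the follicle-homing receptor that marks stem-like CD8+ cells, was 14.5, 20.8 and 9.30 in Prdm1 cKO libraries, against 6.74, 3.72 and 0 in c-Maf cKO libraries (difference 2.19, SE 0.56, adjusted p = 0.0440, and 1.08 with the run). The lowest Prdm1 cKO value was above the highest c-Maf cKO value for both. Of 18 tested members, 17 had positive differences, the median was 0.95 (0.54 with the run), and 2 were called higher and 0 lower. After rescaling to CD3 genes the median was 1.66 and 6 were called higher, against 0.57 and 356 over all 10760 genes.

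The number of list members called was 3 without A5, 0 without A6, 0 without A9, 0 without B10, 0 without B11 and 0 without C1. Tcf7, which encodes TCF-1, the factor that maintains stem-like cells, was 122, 167 and 122 in Prdm1 cKO libraries, against 75.2, 65.01 and 43.9 in c-Maf cKO libraries, without overlap, and missed the threshold (adjusted p = 0.0880). Id3 was 18.4, 36.7 and 59.96 in Prdm1 cKO libraries, against 6.33, 13.9 and 5.64 in c-Maf cKO libraries and Bcl6 was 22.1, 16.9 and 13.8 in Prdm1 cKO libraries, against 3.18, 6.84 and 5.55 in c-Maf cKO libraries, also without overlap (adjusted p = 0.0648 for Id3 and 0.0677 for Bcl6). Both are transcriptional regulators of memory and follicular fates.

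Among 22 tested effector and exhaustion factors, Prdm1 itself was the only gene called, and their median difference was -0.48 (-0.15 with the run, 0.21 after rescaling to CD3 genes). Id2, a regulator of effector differentiation that opposes Id3, was 95.8, 84.2 and 147 in Prdm1 cKO libraries, against 283, 196 and 174 in c-Maf cKO libraries (adjusted p = 0.0970). Tox, the factor that installs the exhausted state, was 47.96, 15.5 and 12.9 in Prdm1 cKO libraries, against 51.5, 48.6 and 64.4 in c-Maf cKO libraries (adjusted p = 0.166). For Tox, A5 lay just under the c-Maf cKO range and A6 and A9 far below it.

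AP-1 and immediate early genes were higher in Prdm1 cKO where they passed. Jun, a central AP-1 subunit, was 101, 148 and 203 in Prdm1 cKO libraries, against 30.3, 24.4 and 51.1 in c-Maf cKO libraries (difference 2.08, SE 0.39, adjusted p = 0.0152, 1.13 with the run). Fosl1, a Fos-family partner of Jun, was 14.4, 1.33 and 1.27 in Prdm1 cKO libraries, against 0, 0 and 0.3 in c-Maf cKO libraries (difference 1.99, SE 0.52, adjusted p = 0.0459), with A5 far above the other libraries. Of 19 tested members, 17 had positive differences, the median was 0.88 (0.50 with the run, 0.56 with the macrophage score), and 2 were called higher and 0 lower. After rescaling to CD3 genes the median was 1.56 and 5 were called higher, against 0.57 and 356 over all 10760 genes. The number called was 3 without A5, 0 without A6, 1 without A9, 0 without B10, 0 without B11 and 1 without C1. With the macrophage score in the limma model 0 members were called (adjusted p = 0.0699 for Jun and 0.182 for Fosl1). The macrophage scores given above moved in the same direction, and their part in this group was tested only as that covariate.

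The leading higher genes included several known from myeloid cells. Retnla, a secreted resistin-like protein known from alternatively activated mouse macrophages, was 31.3, 36.9 and 49.7 in Prdm1 cKO libraries, against 0, 0 and 11.4 in c-Maf cKO libraries (difference 4.10, SE 0.71, adjusted p = 0.00983, 3.99 with the run). It was listed at 0 in B10 and B11, while C1, the c-Maf cKO library with the highest macrophage score, had 11.4. Over the 16 wild-type libraries Retnla spanned 0 to 3.68. In the wild-type library A7, with a macrophage score of 5.63, it was 2.24. Osm, the cytokine oncostatin M, was 15.9, 12.9 and 53.6 in Prdm1 cKO libraries, against 0, 3.62 and 7.85 in c-Maf cKO libraries (difference 2.77, SE 0.72, adjusted p = 0.0449). Fes, a tyrosine kinase known from myeloid cells, was 4.97, 6.31 and 17.3 in Prdm1 cKO libraries, against 0.08, 0.13 and 1.36 in c-Maf cKO libraries (difference 2.71, SE 0.71, adjusted p = 0.0459). Ms4a8a, a membrane protein of the MS4A family, was 7.69, 2.33 and 14.4 in Prdm1 cKO libraries, against 0, 0 and 1.42 in c-Maf cKO libraries (difference 2.51, SE 0.59, adjusted p = 0.0318).

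A9 was the highest of the 6 libraries for Retnla, Osm, Fes and Ms4a8a, and it also had the highest macrophage score. Lyz2, the macrophage lysozyme, was 643, 731 and 1736 in Prdm1 cKO libraries, against 37.2, 159 and 528 in c-Maf cKO libraries and did not pass (adjusted p = 0.335). With the macrophage score in the model, Retnla was called (adjusted p = 0.0364), whereas Osm, Fes and Ms4a8a were not (adjusted p = 0.209, 0.209 and 0.167). Genes lower in Prdm1 cKO also lost their call in that limma model. Prdm1, Havcr2, Prf1 and Mcm5 had adjusted p of 0.0699, 0.0600, 0.113 and 0.0699.

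The other leading higher genes had wider roles. Timp1, an inhibitor of matrix metalloproteinases, was 31.1, 6.43 and 19.6 in Prdm1 cKO libraries, against 1.31, 1.59 and 1.30 in c-Maf cKO libraries (difference 2.83, SE 0.74, adjusted p = 0.0458, and 1.84 with the run). Pmp22, a membrane protein known from peripheral myelin, was 26.3, 7.32 and 18.8 in Prdm1 cKO libraries, against 1.68, 1.18 and 1.12 in c-Maf cKO libraries (difference 2.83, SE 0.74, adjusted p = 0.0458). The lowest Prdm1 cKO library was A6 for both. Wipi1, a phosphoinositide-binding protein of autophagosome formation, was 5.15, 8.48 and 8.77 in Prdm1 cKO libraries, against 0, 1.27 and 0.48 in c-Maf cKO libraries (difference 2.47, SE 0.58, adjusted p = 0.0318). Tfpi, the inhibitor of the tissue factor pathway of coagulation, was 9.67, 5.02 and 11.04 in Prdm1 cKO libraries, against 1.01, 1.33 and 0.33 in c-Maf cKO libraries (difference 2.32, SE 0.60, adjusted p = 0.0440, and 1.15 with the run). Slc35e4, a member of a solute carrier family, was 5.26, 3.48 and 7.82 in Prdm1 cKO libraries, against 0, 0.06 and 1.41 in c-Maf cKO libraries (difference 2.20, SE 0.51, adjusted p = 0.0318). None of the 5 was called with the macrophage score in the model.

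Promoters of the 20 leading genes were searched for a Blimp-1 core and a Maf motif, because these are the motifs of the 2 factors compared. RefSeq promoters (GRCm38.p6, 250 bases before to 50 after each start) were matched for 17 of the 20 genes, 23 promoters in all. The Blimp-1 core AGNGAAAG, searched on both strands, was in 0 of the 23, against 8.63% of all 32851 promoters. The Maf motif TGCTGAC, likewise on both strands, was in 3 of the 23, against 4.67% of all, and the 3 belong to genes that were higher in Prdm1 cKO. No promoter of the 23 held both motifs. The 3 promoters are shown for the position of the Maf motif, in capitals as read on the strand of the gene.
Ms4a8a: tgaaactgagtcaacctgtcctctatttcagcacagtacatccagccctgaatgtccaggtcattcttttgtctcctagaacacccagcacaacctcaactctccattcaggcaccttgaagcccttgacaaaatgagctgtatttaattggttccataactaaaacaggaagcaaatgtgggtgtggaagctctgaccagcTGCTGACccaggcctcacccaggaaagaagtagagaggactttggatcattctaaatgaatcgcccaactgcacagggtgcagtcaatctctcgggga
Pmp22: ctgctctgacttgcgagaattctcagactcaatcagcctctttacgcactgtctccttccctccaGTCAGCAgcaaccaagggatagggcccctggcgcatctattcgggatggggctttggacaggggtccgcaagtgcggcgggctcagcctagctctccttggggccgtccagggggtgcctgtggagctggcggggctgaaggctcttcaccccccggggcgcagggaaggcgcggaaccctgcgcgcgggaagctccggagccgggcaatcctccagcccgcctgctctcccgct
Retnla: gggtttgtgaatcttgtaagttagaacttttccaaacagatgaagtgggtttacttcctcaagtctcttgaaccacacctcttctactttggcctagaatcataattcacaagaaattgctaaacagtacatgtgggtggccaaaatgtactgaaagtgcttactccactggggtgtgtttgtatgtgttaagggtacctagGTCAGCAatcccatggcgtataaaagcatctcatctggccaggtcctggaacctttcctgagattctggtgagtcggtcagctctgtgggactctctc
The Ms4a8a promoter is chr19:11081054-11081353, minus strand, with the Maf motif at -48 from the start on the strand of the gene. That of Pmp22 is chr11:63132319-63132618, plus strand, with the Maf motif at -185 on the opposite strand, so its capitals show the reverse complement. That of Retnla is chr16:48842359-48842658, plus strand, with the Maf motif at -48, also on the opposite strand. These matches describe the letters only.

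Ribosomal protein genes that passed were higher in Prdm1 cKO. Rps27, of the small subunit, was 1099.8, 2189 and 1450.4 in Prdm1 cKO libraries, against 359, 746 and 526 in c-Maf cKO libraries (difference 1.54, SE 0.35, adjusted p = 0.0298, 1.66 with the run). Rpl12, of the large subunit, was 1497, 2459.8 and 1586 in Prdm1 cKO libraries, against 1123, 1139 and 1017 in c-Maf cKO libraries (difference 0.72, SE 0.16, adjusted p = 0.0255). A6 was the highest library for both, and the groups did not overlap. Of 77 tested members, 7 were called higher and 0 lower, 73 differences were positive, and the median was 0.33 (0.45 with the run). After rescaling to CD3 genes the median was 1.04, and 61 members were called higher, against 0.57 and 356 over all 10760 genes. Rpl23, Rplp2, Rps21, Rps24 and Rps29 were the other called members, and the number called was 11 without A5, 0 without A6, 1 without A9, 0 without B10, 1 without B11 and 0 without C1. Reads of ribosomal protein genes are shared with processed pseudogenes, so these values are uncertain.

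Of the metabolic lists, nutrient transport held 1 called gene, and glycolysis and cholesterol synthesis held 0. Slc2a3, which encodes the glucose transporter GLUT3, was 13.04, 4.87 and 6.09 in Prdm1 cKO libraries, against 28.3, 32.2 and 34.5 in c-Maf cKO libraries (difference -1.96, SE 0.36, adjusted p = 0.0134, -1.38 with the run). Ldha, the enzyme that turns pyruvate into lactate, was 1038, 875 and 1044 in Prdm1 cKO libraries, against 1496, 1470.5 and 1464 in c-Maf cKO libraries, without overlap (adjusted p = 0.0751). Hk2, a hexokinase, was 5.90, 8.46 and 15.5 in Prdm1 cKO libraries, against 6.44, 2.14 and 2.75 in c-Maf cKO libraries (adjusted p = 0.148). The median difference was -0.21 over 16 glycolysis genes (-0.20 with the run), 0.17 over 15 transporters (0.05) and -0.41 over 20 cholesterol synthesis genes (-0.55), in which Sc5d and Hmgcs1 had the smallest adjusted p, 0.0739 and 0.0797.

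Antigen presentation held 1 called gene. Tap1, the peptide transporter of MHC class I loading, was 44.5, 45.3 and 58.9 in Prdm1 cKO libraries, against 106, 137 and 119.5 in c-Maf cKO libraries (difference -1.27, SE 0.29, adjusted p = 0.0313, and -0.77 with the run). All 16 MHC class I genes tested had negative differences, with a median of -0.50 (-0.18 with the run, 0.21 after rescaling to CD3 genes), and Tap1 was the only one called. With the run, 11 of the 16 were negative, and after rescaling to CD3 genes Tap1 was not called (adjusted p = 0.0935). Gimap7, a GTPase of lymphocyte survival, was 22.5, 24.4 and 29.04 in Prdm1 cKO libraries, against 90.9, 106 and 72.03 in c-Maf cKO libraries (difference -1.78, SE 0.43, adjusted p = 0.0410, and -1.04 with the run), the only one called of 8 Gimap genes, which are close paralogs (median -0.24, -0.12 with the run, 0.46 after rescaling to CD3 genes). Among 13 interferon gamma-induced GTPases and 19 interferon-stimulated genes 0 were called, with medians of -0.33 for the GTPases (-0.24 with the run) and -0.17 for the interferon-stimulated genes (-0.14 with the run). Gbp3 came nearest, at 6.03, 10.4 and 6.33 in Prdm1 cKO libraries, against 14.1, 19.8 and 20.1 in c-Maf cKO libraries (adjusted p = 0.0529).

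In 11 of the 26 gene lists 0 members were called. Among cytokine receptors, Il4ra, the IL-4 receptor chain, was 45.9, 77.8 and 65.8 in Prdm1 cKO libraries, against 27.7, 34.1 and 31.9 in c-Maf cKO libraries (adjusted p = 0.0612), and Il12rb1, an IL-12 receptor chain, was 8.50, 5.77 and 3.60 in Prdm1 cKO libraries, against 28.04, 19.8 and 17.5 in c-Maf cKO libraries (adjusted p = 0.0615). Both were without overlap, in opposite directions, as were 11.1% of all genes tested on the higher side and 13.7% on the lower side. Among T cell receptor signalling genes, Zap70, the kinase that binds the activated receptor, was 58.3, 55.1 and 58.03 in Prdm1 cKO libraries, against 123, 112 and 149 in c-Maf cKO libraries (adjusted p = 0.0532), and 20 of 24 differences were negative (median -0.30). With the run the median was -0.07, with 10 positive and 14 negative differences, and after rescaling to CD3 genes it was 0.40. Ptpn7, a tyrosine phosphatase of lymphocytes, was 18.1, 13.9 and 11.04 in Prdm1 cKO libraries, against 38.4, 35.9 and 39.6 in c-Maf cKO libraries (adjusted p = 0.0524).

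The cytokine Csf1 was 1.35, 1.41 and 0.65 in Prdm1 cKO libraries, against 5.22, 7.40 and 6.33 in c-Maf cKO libraries (adjusted p = 0.129), and Tnf was 25.9, 24.4 and 42.5 in Prdm1 cKO libraries, against 11.3, 4.81 and 29.99 in c-Maf cKO libraries (adjusted p = 0.182). Csf1 did not overlap between the groups, whereas Tnf did. The medians of the remaining lists with 0 calls were 0.03 over 12 cytokines (-0.01 with the run), -0.25 over 19 cytokine receptors (-0.16), -0.47 over 11 killer cell lectin-like receptors (0.03), -0.04 over 11 Dusp and Sprouty genes (0.15), 0.13 over 11 heat shock chaperones (0.18) and -0.38 over 12 Bcl2 family genes (-0.14). With the run, the lectin-like receptors and the Dusp and Sprouty genes thus had positive medians and the cytokines a negative one. Smallest adjusted p in these were 0.187 for Klrb1c, 0.156 for Dusp10, 0.160 for Dnajb1 and 0.132 for Mcl1.

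**Figure D4:**
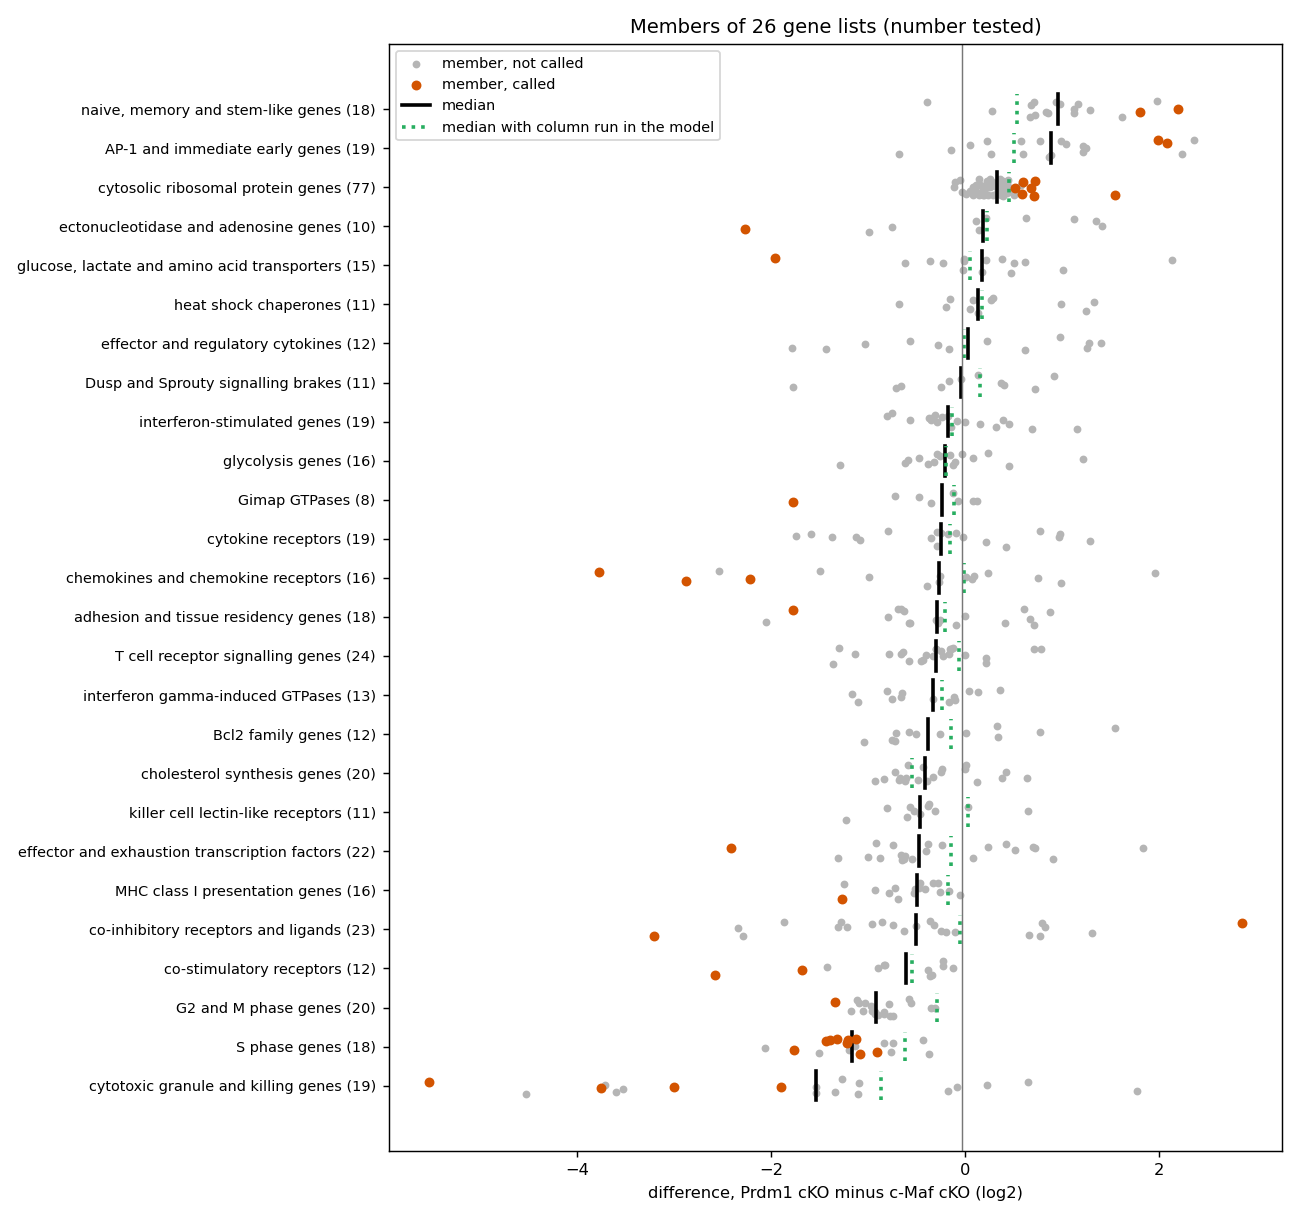
Difference in log2(signal + 1), Prdm1 cKO minus c-Maf cKO (x axis), for the tested members of 26 gene lists (y axis, number tested in brackets). Grey points are members not called and orange points are members called, and a black bar is the list's median with a dotted green bar for the median with the run in the model. Killing genes (-1.54), S phase (-1.17) and G2 and M phase (-0.92) have the lowest medians, and naive and memory genes (0.95) and AP-1 genes (0.88) the highest.

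Scaling bears on most of these directions. When each library was rescaled to its CD3 genes, the median difference of all genes moved to 0.57, a shift of 0.61, and 16 of the 19 lists with negative medians had positive ones. Killing genes (-0.83), S phase (-0.52) and G2 and M phase (-0.27) stayed negative, with 5 killing genes, 0 S phase genes and 0 G2 and M phase genes called lower. Under the same rescaling 1 killing gene was called higher. By gene, 73 of the 73 called higher and 127 of the 131 called lower kept their sign under that scaling, and 386 genes were called, 356 higher and 30 lower.

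Each knockout was also set beside wild type of its own run. For Gzmb the difference from wild type was -4.84 in Prdm1 cKO, against -0.40 in c-Maf cKO. For Il7r that difference was 1.09 in Prdm1 cKO, against 0.20 in c-Maf cKO. Ccl1 had differences of opposite sign, at -2.51 in Prdm1 cKO, against 1.35 in c-Maf cKO, as did Pmp22, at 2.14 in Prdm1 cKO, against -1.26 in c-Maf cKO. The departure was larger in Prdm1 cKO than in c-Maf cKO for 64 of the 73 genes called higher and 123 of the 131 called lower, against 6374 of all 10760 genes. These differences use the same knockout libraries that chose the genes, and they are given as a description with no test.

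All 3 Prdm1 cKO values lay on 1 side of all 16 wild-type values for 195 genes (1.81%), and all 3 c-Maf cKO values for 35 genes (0.325%). Of the 204 called genes, 60 were outside wild type in Prdm1 cKO, against 8 in c-Maf cKO. Medians over the 73 genes called higher were 0.88 in Prdm1 cKO, against -0.19 in c-Maf cKO, and -0.02 in both over all genes. Medians over the 131 genes called lower were -0.82 in Prdm1 cKO, against 0.02 in c-Maf cKO.

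The cDKO libraries were set against the 5 wild-type columns next to them. None of these is among the libraries compared, but all of them entered the limma fit whose spread decided the calls. The median difference, cDKO minus wild type, was 0.39 over the genes called higher, with 54 of 73 positive (74%), and -0.65 over those called lower, with 125 of 131 negative (95.4%). Over all genes it was -0.03, with 47.4% positive and 52.6% negative. Gzmb was -4.19, Ccl1 was -3.73 and Il7r was 2.18, each on the side of the Prdm1 cKO difference. Timp1, at -0.87, and Pmp22, at -0.49, were on the other side, and Retnla was listed at 0 in all cDKO libraries and all 5 wild-type columns beside them. The contrast was computed with the called genes known, and no test was run on it.

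**Figure D5:**
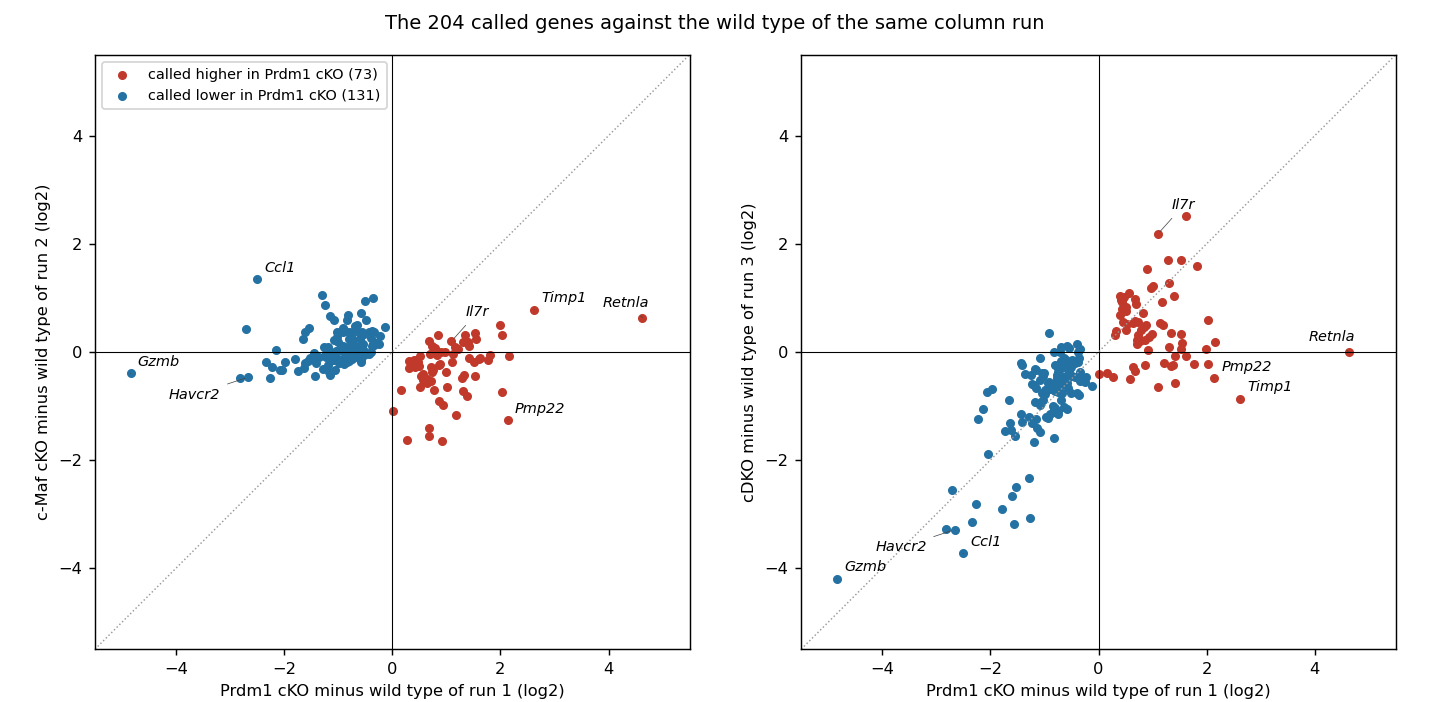
For the 204 called genes, the difference in log2 signal between Prdm1 cKO and wild type of run 1 (x axis) against that between c-Maf cKO and wild type of run 2 (left, y axis) and between cDKO and wild type of run 3 (right, y axis). Each point is 1 gene, red for called higher and blue for called lower in Prdm1 cKO, and the dotted line marks equal differences. Gzmb sits at -4.84 on the x axis, with -0.40 in the left panel and -4.19 in the right panel.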

How the data were processed

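RNA from tumour-infiltrating CD8+ T cells of 25 samples was measured by sequencing, and 6 libraries were compared here. The deposited table holds a normalised signal per gene and library, and the authors' scaling of it is not stated. TopHat, RSEM, DESeq and the build mm9 are named, per the submitters' processing notes, without role or order. Among low values the 10th percentile of values above 0 was 0.50 in the 25% shortest transcripts and 0.07 in the 25% longest (21732 symbols matched to lengths), so levels were not compared between genes. Depth is unknown, and no counting intervals are given. The columns name genotype and not replicate, so each was assigned to its group only, and 0 columns were left unused. No 2 columns were identical.

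All 25 libraries entered 1 limma fit (limma 3.58.1 in R 4.3.3, trend and robust options) on log2(signal + 1), with a mean per group. The contrast was Prdm1 cKO minus c-Maf cKO over genes with a value of at least 1 in at least 3 of the 6 libraries, and genes with an adjusted p under 0.05 (Benjamini-Hochberg) were called. Prdm1 and Maf alone were also tested by exact two-sided permutation (scipy 1.17.1, with pandas 2.3.3 in Python 3.11.15). The scripts were tested on simulated data. Alternatives were the run of columns, the macrophage score (the mean log2 level of the macrophage markers) or both as covariates, the 6 libraries alone, pseudocounts of 0.1 and 10, no filter, a minimum of 10, median-of-ratios scaling, rescaling to CD3 genes, no trend or robust options, and leaving out each library.

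Named genes were Prdm1, Maf, the 10 genes with the largest difference in each direction among called genes without overlap (markers of other cells and clone names skipped), and per gene list up to 4 called members or, with none called, the 2 with the smallest p. Genes named beyond that rule were chosen after their values were seen. The 26 gene lists and 12 marker lists, and the comparison itself, were chosen with earlier results of these data known. Promoter sequences come from RefSeq. Its build is not that of the notes, so no coordinates were joined.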

Additional observations from a re-analysis of the deposited data

How the results depend on the processing

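No paired analysis was possible because the columns carry no replicate numbers. The calls of the comparison depend on the model. With the run of columns as a covariate, 0 genes were called, 0 higher and 0 lower in Prdm1 cKO, and likewise 0, 0 and 0 with the run and the macrophage score together, an alternative chosen after seeing the data (590 genes at an unadjusted p under 0.05). With the macrophage score alone, 7 were called, 4 higher and 3 lower. Rescaling to the CD3 genes gave 386, with 356 higher and 30 lower. The genes called higher, 73 in the reported fit, numbered 48 with a pseudocount of 0.1, 119 with a pseudocount of 10, 111 with no filter and 30 with a minimum of 10. Leaving out 1 library at a time gave 5 to 343 calls, 2 to 117 of them higher and 3 to 226 lower, with the lowest counts without B10 and the highest without A5. The cause of these shifts was not tested, except that fewer genes enter the fit with a minimum of 10. A fit of the 6 libraries alone called 258 genes, of which 93 were among the 204. Totals under the remaining settings were 143 to 248, and the difference in Prdm1 kept its sign in all settings. Run and genotype cannot be told apart in the 6 libraries, Maf is near the lower limit of the values, and with unknown depth a value of 0 gives no limit.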

Other observations

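Tec, Filip1 and Slc4a11 are called genes outside the lists, chosen after their values were seen, and they were also called with the macrophage score in the model. Tec, a cytoplasmic kinase of antigen receptor signalling, was 5.33, 7.95 and 9.16 in Prdm1 cKO libraries, against 2.11, 3.04 and 1.52 in c-Maf cKO libraries (difference 1.39, SE 0.31, adjusted p = 0.0262). Filip1, a protein that binds filamin A, was 0.47, 0 and 1.21 in Prdm1 cKO libraries, against 6.29, 2.31 and 10.9 in c-Maf cKO libraries (difference -2.15, SE 0.45, adjusted p = 0.0240). Slc4a11, a membrane transporter of the bicarbonate transporter family, was 2.86, 2.33 and 4.95 in Prdm1 cKO libraries, against 0.07, 0 and 0.09 in c-Maf cKO libraries (difference 2.01, SE 0.31, adjusted p = 0.00225). Tec and Slc4a11 were higher in all 3 Prdm1 cKO libraries than in any c-Maf cKO library, and Filip1 was lower in all of them.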
